A study of Mus musculus with 8 samples.

Results

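The 46 genes described here encode proteins that carry a cell from G2 through mitosis, among them the cyclin-dependent kinase gene Cdk1 and its cyclins, the Aurora and Polo kinases, the spindle checkpoint, centromere proteins, spindle kinesins, condensin and the cytokinesis machinery. They were picked by symbol as a standard set for this phase, but with earlier results of these data known. All 46 of 46 had a row among the 23284 genes of the deposited counts. The study compared 8 RNA-seq libraries made from sorted endocrine-lineage cells of the mouse pancreas at embryonic day 17. The KO libraries (replicates 8, 9, 17 and 24) carried Neurod1floxed/floxed, and the Het libraries (replicates 6, 7, 13 and 19) carried Neurod1floxed/wt, so the Het cells could lose 1 allele too. All 8 shared Neurog3Cre+, RosaTomato+ and the strain label C56BL/J, and Tomato-positive cells were sorted by flow cytometry. Neurog3-Cre is active in endocrine precursors, and the reporter stays on in all cells that descend from them, so the sorted pool can hold precursors and hormone cells at any stage. The labels do not say whether a library is 1 embryo or a pool, so p-values measure the spread between these libraries.

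Most G2 and mitosis genes are transcribed late in the cell cycle and shut off in resting cells, which makes their summed RNA a common readout of how many cells of a pool are dividing. In resting cells the DREAM complex, with a p107 or p130 pocket protein and the MuvB core, represses them, and in G2 the same core works with B-Myb and Foxm1 to switch them on. Endocrine precursors that express Neurog3 mostly leave the cell cycle as they differentiate, and the hormone cells that arise from them begin to divide again late in gestation. In bulk RNA, fewer dividing cells and less of these transcripts per dividing cell cannot be told apart.

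The libraries held 10.35 M to 16.1 M counts, of which 8809 to 27557 fell on the 46 genes. Neurod1 stood between 2.55 and 22.2 CPM (counts scaled to a common library size, so that 1 CPM stands for 9.86 to 16.2 counts here) in the KO libraries and between 133 and 210 CPM in the Het libraries. Islet endocrine markers were abundant everywhere. The 16 markers summed to between 23395 and 45924 CPM in KO and between 67521 and 93911 CPM in Het. Of the 16, the hormone genes Ins1, Ins2 and Gcg were called lower in both fits, and none was called higher. Of all genes, 0.680% were called lower with all libraries and 1.31% without KO replicate 8. The hormone genes Iapp, Sst, Ppy and Ghrl were not called in either fit. Their log2 fold changes without KO replicate 8 were −0.76, −0.21, 0.38 and 0.05. KO replicate 8 stood apart. Its 11 mesenchyme markers, all of them highest there, summed to 9913 CPM, against 501 to 624 CPM in the other KO libraries and 518 to 1345 CPM in the Het libraries. The collagen gene Col3a1 alone stood at 3276 CPM in KO replicate 8, and its 9 leukocyte markers, led by the macrophage lysozyme gene Lyz2 at 253 CPM, summed to 530 CPM. The highest member of the other lists in KO replicate 8 was Ctrb1 for acinar cells (12473 CPM) and Epcam for duct (343 CPM). For Schwann cells it was Erbb3 (11.9 CPM), for erythroid cells Alas2 (8.01 CPM) and for endothelium both Tek and Pecam1 (6.19 CPM). KO replicate 8 did not stand apart for Ctrb1, Erbb3 or Alas2, which lay within their Het ranges (8277 to 26676, 7.10 to 16.3 and 6.26 to 15.3 CPM). Epcam was lowest in KO replicate 8. Tek and Pecam1 lay above every Het library (at most 0.811 and 3.14 CPM), but Pecam1 was higher still in KO replicate 9 (7.10 CPM). The 4 Y-linked genes, which mark male cells and were not called in either fit, summed to 427 to 497 CPM in KO replicates 8, 9 and 24 and 414 CPM in Het replicate 7, with at most 0.442 CPM in KO replicate 17 and Het replicates 6, 13 and 19. The main results are therefore given with and without KO replicate 8, and a fold change given once is without it. With all 8 libraries the log2 fold changes of the 46 genes ran from −1.11 for Nek2 to 0.12 for Cdc20.

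Without KO replicate 8, all 46 genes had a negative log2 fold change (KO over Het), with a median of −0.96, where 50.6% of the 14307 genes tested were negative and their median was −0.00. By edgeR's quasi-likelihood test 3 of the 46 were lower at an adjusted p under 0.05, the cyclin gene Ccnb2, the central spindle gene Prc1 and the condensin gene Smc2, beside 1.31% of all genes tested, and none was higher, beside 0.678%. At an unadjusted p under 0.05 there were 33 lower, beside 8.21% of all genes, and 0 higher, beside 6.03%. DESeq2 called 18 of the 46 lower, beside 3.13% of all genes by that tool, and limma-voom called 3, beside 1.17%. In 20 of the 46 every remaining KO library lay below every Het library, beside 7.56% of all genes, and in 0 every one lay above, beside 6.91%. The 3 calls were lost with a covariate for Y-linked genes (0 called, beside 0.671% of all genes, median −0.97, smallest adjusted p = 0.0547). They were also lost when KO replicate 17, KO replicate 24 or Het replicate 13 was left out too, beside 0.408%, 0.392% and 0.687% of all genes called lower. Only Prc1 was called without Het replicate 7, beside 0.804%. Without Het replicate 6 Smc2 was lost (adjusted p = 0.0634) and the 3 calls were Ccnb2, Prc1 and Cenpf. With all 8 libraries the median was −0.53, beside 0.03 for the 14116 genes tested, and 43 of the 46 were negative, beside 46.6%. EdgeR then called 0 lower, beside 0.680% of all genes, and 0 higher, beside 0.340%, with 9 lower and 0 higher at an unadjusted p under 0.05, beside 5.80% and 6.35%. DESeq2 also called 0 of the 46 lower, beside 2.08% of all genes by that tool, as did limma-voom, beside 0.850%. With sample quality weights limma-voom called 12 lower, beside 2.15%. The authors' deposited table, which uses all 8 libraries, calls 0 of the 46 at an adjusted p under 0.05, beside 0.698% of its genes lower and 0.283% higher.

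**Figure D1:**
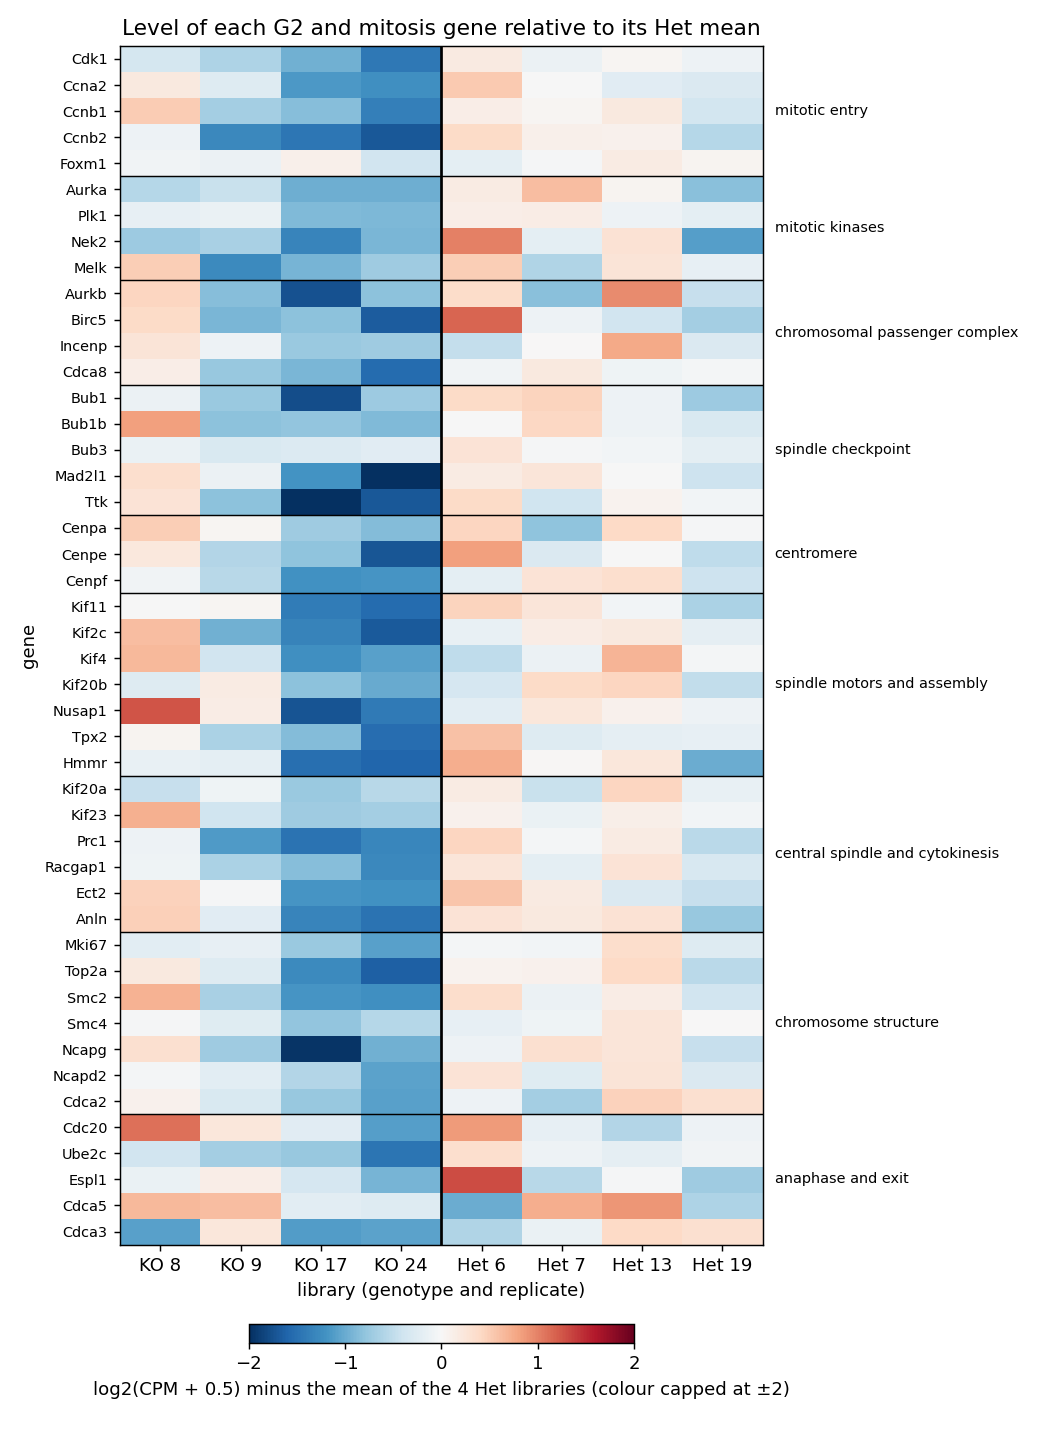
Level of each of the 46 genes (down the page, grouped by role) in each library (across), as log2(CPM + 0.5) minus the mean of the 4 Het libraries, with blue for lower and red for higher. KO 17 and KO 24 are below the Het mean for 45 and 46 of the 46 genes, KO 9 for 38, and KO 8 for 21.

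The libraries did not move alike. The median gene stood at 0.11, −0.35, −0.93 and −1.10 relative to its Het mean, on the log2(CPM + 0.5) scale, in KO replicates 8, 9, 17 and 24. In Het replicates 6, 7, 13 and 19 the medians were 0.21, −0.03, 0.17 and −0.30. KO replicate 9 was therefore close to Het replicate 19, the lowest Het library for 27 of the 46 genes, and among KO replicates 9, 17 and 24 it was the highest for 39. KO replicate 8 lay within the Het range for 32 genes, above every Het library for 10 and below every Het library for 4. It was the highest of all 8 libraries for 10 of the 46 (21.7%), beside 22.7% of all genes. The 46 genes summed to 1833, 1355, 887 and 791 CPM in KO replicates 8, 9, 17 and 24, against 1994, 1704, 1965 and 1363 CPM in Het replicates 6, 7, 13 and 19. Without KO replicate 8 the highest KO sum was just below the lowest Het sum.

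Cells outside the endocrine lineage also divide, and their markers varied between libraries. KO replicate 9, the highest of the remaining KO libraries for these genes, also had the highest acinar sum of the 8 libraries, at 45896 CPM for 12 markers, and 312 CPM of leukocyte markers. The acinar sums ran from 13076 to 45896 CPM in KO and from 10222 to 31827 CPM in Het, and the leukocyte sums from 21.9 to 530 CPM in KO and from 24.6 to 75.4 CPM in Het. The mesenchyme sums of KO replicates 9, 17 and 24 overlapped those of the Het libraries, though Het replicates 6 and 7, at 1141 and 1345 CPM, lay above them. EdgeR called none of the mesenchyme, leukocyte or acinar markers in either fit. At an unadjusted p under 0.05, without KO replicate 8, there were 2 mesenchyme markers lower, beside 8.21% of all genes, and 1 leukocyte marker higher, beside 6.03%. In that fit 10 of the 11 mesenchyme markers had a negative log2 fold change (median −0.73), beside 50.6% of all genes. So did 0 of the 9 leukocyte markers (median 1.31) and 2 of the 11 acinar markers tested (median 0.27). The part of these cells in the mitosis gene levels was not tested. Of the 8 duct markers 1, Cftr, was called higher in both fits. Of all genes, 0.340% were called higher with all libraries and 0.678% without KO replicate 8. The duct sums ran from 914 to 1223 CPM in KO and from 887 to 1093 CPM in Het. Endothelial markers summed to at most 30.7 CPM in KO and 16.9 CPM in Het, with Kdr, Tie1, Flt1 and Emcn at 0 in some libraries. Of the 6 tested 1, Cldn5, was called higher in both fits, beside the same shares of all genes. Erythroid markers reached 27.8 CPM in KO and 27.7 CPM in Het, with Hba-a1 and Hbb-b1 at 0 in every library, and Schwann and neural crest markers reached 32.5 CPM in KO and 51.9 CPM in Het. EdgeR called none of these last 2 lists.

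**Figure D2:**
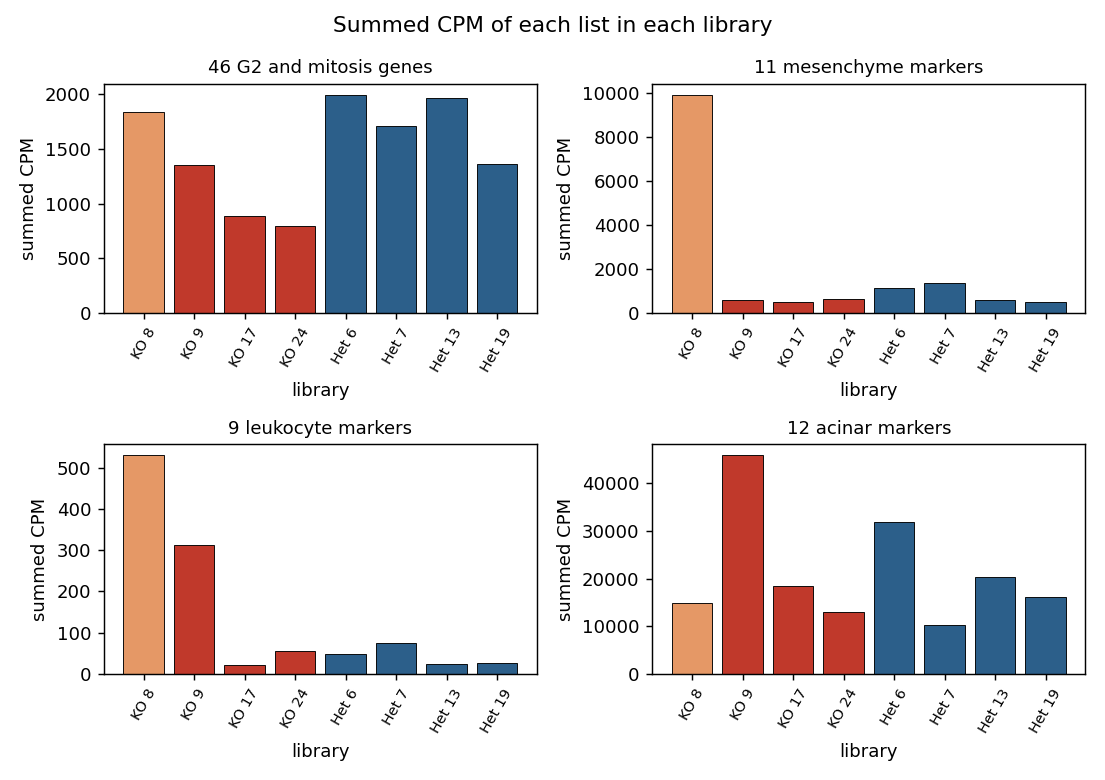
Summed CPM of the 46 genes and of markers of mesenchyme, leukocytes and acinar cells (4 panels, each with its own axis from 0) in every library, KO replicate 8 in orange, other KO libraries in red and Het libraries in blue. KO replicate 8 has 9913 CPM of mesenchyme markers, and KO replicate 9 the highest acinar sum, 45896 CPM.

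Of the 5 genes of mitotic entry 1, Ccnb2, was called without KO replicate 8, beside 1.31% of all genes called lower. At an unadjusted p under 0.05, 4 of the 5 were lower, beside 8.21%. Ccnb2, a B-type cyclin of the Golgi and cytoplasm that activates Cdk1, stood at 19.1, 8.14, 7.24 and 6.02 CPM in KO replicates 8, 9, 17 and 24, against 27.0, 21.9, 21.8 and 13.7 CPM in Het replicates 6, 7, 13 and 19. The 3 lower KO libraries lay together, well under the lowest Het library, and KO replicate 8 stood among the Het libraries. Ccnb2 fell by 1.58 on the log2 scale without KO replicate 8 (log2 fold change −1.58, SE 0.30, edgeR adjusted p = 0.0192), to 7.13 ± 1.06 CPM in KO (SD, n = 3), against 21.1 ± 5.52 CPM in Het (SD, n = 4). The 8-library fit gave −1.06 for Ccnb2 (SE 0.39, adjusted p = 0.307). Ccnb1, which encodes the main mitotic cyclin, stood at 23.0, 9.81, 8.67 and 5.93 CPM in the KO libraries, against 17.6, 16.4, 18.5 and 12.3 CPM in the Het libraries. KO replicate 8 was the highest of all 8 for Ccnb1 and the other KO libraries were the lowest, so the fold change depended on that library, at −0.45 (log2, SE 0.40) with it and −1.002 (SE 0.30, adjusted p = 0.128) without it.

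Cdk1, the kinase that drives entry into mitosis, was 1 of 2 members in which every KO library lay below every Het library, beside 4.48% of all genes, and no member had every KO library above, beside 3.55%. It stood at 24.04, 20.1, 15.6 and 11.2 CPM in the KO libraries, against 35.1, 28.5, 31.98 and 28.8 CPM in the Het libraries. On the log2 scale Cdk1 differed by −0.81 (SE 0.25, adjusted p = 0.204) with all 8 libraries and −1.0001 (SE 0.24, adjusted p = 0.0562) without KO replicate 8. Ccna2, the A-type cyclin of S phase and G2, stood at 70.6, 51.5, 27.7 and 26.1 CPM in the KO libraries, against 88.9, 61.6, 52.8 and 50.3 CPM in the Het libraries. KO replicate 9 lay inside the Het range for Ccna2, and the log2 fold change without KO replicate 8 was −0.87 (SE 0.27, adjusted p = 0.150). Foxm1, the forkhead factor that activates many of the other genes in G2, gave the second smallest difference in size without KO replicate 8. It stood at 15.4, 15, 17.4 and 12.4 CPM in the KO libraries, against 14.1, 16.0, 18.3 and 16.9 CPM in the Het libraries. The groups overlapped throughout, and the log2 fold change was −0.14 without KO replicate 8 (95% interval −0.68 to 0.41, adjusted p = 0.854) and −0.11 with it (−0.61 to 0.38).

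**Figure D3:**
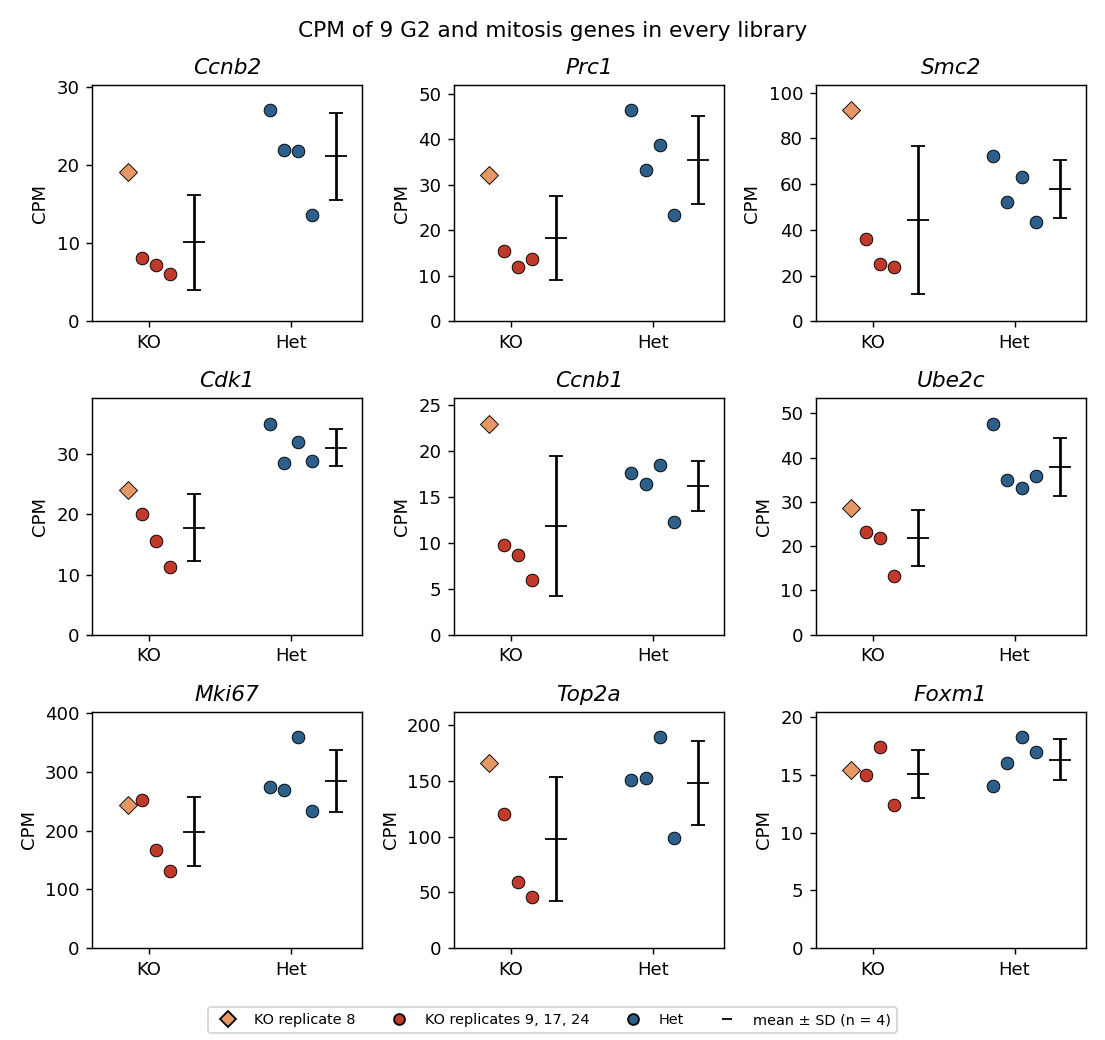
CPM of 9 genes in every library (points, with KO replicate 8 as an orange diamond) and the mean ± SD of 4 libraries per group, each axis from 0. For Ccnb2, Prc1, Smc2 and Ccnb1 the KO replicates 9, 17 and 24 lie below every Het library while KO replicate 8 does not, and for Foxm1 the groups overlap.

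The promoters of 38 of the 46 genes were matched by symbol in RefSeq's table (GRCm38.p6, 250 bases before to 50 after the annotated start). They were searched for short motifs, which were not used to choose the genes. The cell cycle genes homology region, searched here only as TTTGAA or TTCGAA, is the element through which the MuvB core reaches late cell-cycle promoters. CCAAT boxes, bound by NF-Y, usually lie upstream of it. On either strand, TTTGAA or TTCGAA stood in 31 of the 38 windows (81.6%), beside 19.4% of all 27025 windows in the table. CCAAT stood in 30 (78.9%), beside 37.9%, and at least 2 copies in 20 (52.6%), beside 12.2%. The E-boxes CAGATG and CAGCTG, of the kind that basic helix-loop-helix factors bind, stood in 7 (18.4%), beside 30.4%. A match is a description of letters only. The homology region and CCAAT were searched as known elements of promoters of this class of genes. Their shares do not bear on KO against Het. In the windows below, capitals mark TTTGAA or TTCGAA on either strand, and likewise CCAAT. The windows are those of the 3 genes called without KO replicate 8 and of Ccnb1, which was not called, beside its fellow B-type cyclin. They lie at chr13:100786437-100786736 (minus strand), chr9:70421505-70421804 (minus strand), chr7:80294201-80294500 (plus strand) and chr4:52438971-52439270 (plus strand).
Ccnb1: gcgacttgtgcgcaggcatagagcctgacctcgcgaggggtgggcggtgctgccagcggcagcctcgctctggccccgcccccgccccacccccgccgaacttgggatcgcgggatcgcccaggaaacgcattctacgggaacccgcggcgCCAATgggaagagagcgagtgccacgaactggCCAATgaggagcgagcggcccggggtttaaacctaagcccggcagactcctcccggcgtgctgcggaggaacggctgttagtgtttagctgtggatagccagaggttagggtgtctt
Ccnb2: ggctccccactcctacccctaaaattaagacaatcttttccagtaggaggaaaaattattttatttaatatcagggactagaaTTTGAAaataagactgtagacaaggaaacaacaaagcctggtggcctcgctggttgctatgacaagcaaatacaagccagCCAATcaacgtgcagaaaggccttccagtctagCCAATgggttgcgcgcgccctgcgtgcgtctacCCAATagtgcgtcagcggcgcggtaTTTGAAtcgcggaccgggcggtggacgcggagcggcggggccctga
Prc1: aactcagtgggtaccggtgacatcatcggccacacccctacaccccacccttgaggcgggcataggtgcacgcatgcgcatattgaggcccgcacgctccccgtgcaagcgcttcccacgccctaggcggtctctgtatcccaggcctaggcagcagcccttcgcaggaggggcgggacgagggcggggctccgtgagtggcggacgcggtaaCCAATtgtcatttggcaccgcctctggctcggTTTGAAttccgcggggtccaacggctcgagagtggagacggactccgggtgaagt
Smc2: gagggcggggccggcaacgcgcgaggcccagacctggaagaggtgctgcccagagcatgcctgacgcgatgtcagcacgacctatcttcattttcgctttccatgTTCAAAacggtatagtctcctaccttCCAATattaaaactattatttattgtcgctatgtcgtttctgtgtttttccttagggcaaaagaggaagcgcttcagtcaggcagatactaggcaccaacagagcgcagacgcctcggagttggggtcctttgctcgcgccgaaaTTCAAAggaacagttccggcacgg
Counted from the annotated first base as 0, Ccnb2 has CCAAT starting at −87, −54 and −21 and TTTGAA at −167 and 4. Ccnb1 has CCAAT at −99 and −67 and neither TTTGAA nor TTCGAA, and other forms of the element were not searched. Prc1 has CCAAT at −37 and TTTGAA at −5. Smc2 has TTTGAA on the opposite strand, read here as TTCAAA, at −145 and 26, and CCAAT at −119.

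Chromosome structure genes gave the third called member. Smc2, an ATPase subunit shared by both condensin complexes, which compact mitotic chromosomes, stood at 92.2, 36.1, 24.9 and 23.99 CPM in the KO libraries, against 72.5, 52.4, 63.2 and 43.5 CPM in the Het libraries. KO replicate 8 was the highest of all 8 libraries and the other 3 KO libraries were the lowest. Smc2 fell by 1.04 on the log2 scale without KO replicate 8 (log2 fold change −1.04, SE 0.23, adjusted p = 0.0369), to 28.3 ± 6.77 CPM in KO (SD, n = 3), against 57.9 ± 12.6 CPM in Het (SD, n = 4). With it the log2 fold change was −0.38 (SE 0.40, adjusted p = 0.749). Its partner Smc4 had −0.54 (SE 0.16, adjusted p = 0.130), and the condensin I subunits Ncapg and Ncapd2 had −1.22 and −0.63, all without KO replicate 8 and none called. For Smc4 and Ncapg, too, KO replicates 9, 17 and 24 lay below every Het library.

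Mki67, the gene of the Ki-67 antigen that coats mitotic chromosomes, stood at 243, 252, 167 and 132 CPM in the KO libraries, against 275, 269, 360 and 234 CPM in the Het libraries. Only KO replicates 17 and 24 lay below the lowest Het library, and the log2 fold change was −0.52 (SE 0.22, adjusted p = 0.381) with all libraries and −0.65 (SE 0.21, adjusted p = 0.166) without KO replicate 8. Top2a, the topoisomerase that untangles sister chromatids, stood at 166, 120, 59.3 and 46 CPM in the KO libraries, against 151, 153, 190 and 98.7 CPM in the Het libraries. The same 2 KO libraries stood apart from the rest, and without KO replicate 8 Top2a differed by −0.99 on the log2 scale (SE 0.30, adjusted p = 0.131). Cdca2, which targets a phosphatase to chromatin at mitotic exit, had −0.79. All 7 genes of this role were lower at an unadjusted p under 0.05 without KO replicate 8, beside 8.21% of all genes.

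Genes of the central spindle and cytokinesis included the call with the smallest p. Prc1, which bundles the microtubules of the central spindle, stood at 32.1, 15.5, 11.99 and 13.7 CPM in the KO libraries, against 46.3, 33.3, 38.7 and 23.4 CPM in the Het libraries. KO replicates 9, 17 and 24 lay below every Het library, and KO replicate 8 lay within the Het range. Prc1 fell by 1.38 on the log2 scale without KO replicate 8 (log2 fold change −1.38, SE 0.26, adjusted p = 0.0172), to 13.7 ± 1.74 CPM in KO (SD, n = 3), against 35.4 ± 9.63 CPM in Het (SD, n = 4). With all libraries the log2 fold change was −0.95 (SE 0.34, adjusted p = 0.285). Of Prc1's exonic bases 21.8% are shared with Rccd1 on the opposite strand, and since the kit does not keep strand, reads of the pair cannot be told apart there. Racgap1, a subunit of centralspindlin, had −0.95 (SE 0.24, adjusted p = 0.0751) without KO replicate 8, and Kif23, the kinesin of the same complex, had −0.62 (SE 0.23). Ect2, the exchange factor that centralspindlin recruits to trigger the contractile ring, had −0.79 and Kif20a, a kinesin of the cleavage furrow region, −0.51. Anln, the anillin scaffold of the contractile ring, stood at 53.5, 32.7, 15.01 and 13.4 CPM in the KO libraries, against 46.2, 43.8, 47.2 and 22.5 CPM in the Het libraries. KO replicate 8 was the highest of all, KO replicates 17 and 24 were the lowest, and the log2 fold change without KO replicate 8 was −0.98 (SE 0.34, adjusted p = 0.192).

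The spindle checkpoint, which holds anaphase until every kinetochore is attached, gave no call in either fit. Without KO replicate 8, 4 of its 5 genes were lower at an unadjusted p under 0.05, beside 8.21% of all genes. Bub3, which also works outside mitosis, stood at 89.4, 79.1, 81.2 and 83.7 CPM in the KO libraries, against 118, 96.7, 94.0 and 85.5 CPM in the Het libraries. Without KO replicate 8 its groups did not overlap, but the gap was small, with a log2 fold change of −0.29 (95% interval −0.61 to 0.04). Ttk, the kinase also called Mps1 that starts checkpoint signalling, had −1.56 (SE 0.40, adjusted p = 0.0792), between 2.71 and 6.86 CPM in KO replicates 9, 17 and 24 and between 9.33 and 16.5 CPM in Het. Bub1b, the gene of BubR1, had −0.89 (SE 0.26, adjusted p = 0.121), the kinase gene Bub1 −1.12 and Mad2l1, the gene of the Cdc20 inhibitor Mad2, −0.96, again without KO replicate 8. KO replicate 8 was the highest of all libraries for Bub1b, at 35.9 CPM, against 16.1 to 26.8 CPM in Het.

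Of the 3 centromere genes none was called in either fit. Cenpf, a large kinetochore protein that accumulates in G2, stood at 66.5, 47.1, 29.8 and 30.4 CPM in the KO libraries, against 60.9, 83.9, 88.2 and 52.3 CPM in the Het libraries. KO replicates 9, 17 and 24 were the lowest 3 of the 8, and without KO replicate 8 the log2 fold change was −1.01 (SE 0.24, adjusted p = 0.0537). The kinetochore kinesin gene Cenpe had −1.08 (SE 0.34, adjusted p = 0.148), with groups that did not overlap, and Cenpa, which encodes the centromeric histone H3 variant, −0.56 with groups that did.

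Among spindle motors and assembly factors no gene was called in either fit. Kif11, the kinesin that pushes spindle poles apart, stood at 53.0, 54.6, 19.9 and 18.1 CPM in the KO libraries, against 72.9, 62.9, 51.3 and 34.0 CPM in the Het libraries. The KO libraries split into a higher and a lower pair, with only KO replicates 17 and 24 below every Het library, and the log2 fold change without KO replicate 8 was −0.86 (SE 0.37, adjusted p = 0.320). The same split held for Hmmr, a spindle assembly factor, at 40.1, 38.8, 15.3 and 14.5 CPM in the KO libraries, against 74.5, 45.6, 52.4 and 22.2 CPM in the Het libraries. Tpx2, which activates Aurora A on the spindle, had −1.03 (SE 0.29, adjusted p = 0.103) and the microtubule depolymerase gene Kif2c −1.53 (SE 0.52, adjusted p = 0.180), both without KO replicate 8 and with groups that did not overlap. Kif2c is a low-count gene, between 1.26 and 2.39 CPM in those 3 KO libraries and between 4.46 and 5.92 CPM in Het. The chromokinesin gene Kif4 had −0.97 and Kif20b, a kinesin of late mitosis, −0.54. Nusap1, which links microtubules to chromosomes, stood at 47.3 CPM in KO replicate 8 and between 5.58 and 21.8 CPM in the other KO libraries, against 16.8 to 22.9 CPM in Het. The log2 difference was 0.06 (SE 0.57) with all libraries and −0.79 (SE 0.41, adjusted p = 0.421) without KO replicate 8.

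Mitotic kinases and the chromosomal passenger complex had members with wide Het ranges. Nek2, a kinase that separates centrosomes, stood at 12.02, 12.7, 7.84 and 10.5 CPM in the KO libraries, against 41.1, 17.6, 25.0 and 9.23 CPM in the Het libraries. The KO libraries lay close together and Het replicate 19 lay among them, and the log2 fold changes of −1.11 (SE 0.41) with all libraries and −1.18 (SE 0.42, adjusted p = 0.208) without KO replicate 8 did not pass. Aurka, which matures spindle poles, had −0.93, Plk1, the Polo-like kinase, −0.66 and the kinase gene Melk −1.10 without KO replicate 8. In the passenger complex, which corrects faulty attachments, Birc5, the gene of survivin, stood at 38.3, 15.3, 16.4 and 8.89 CPM in the KO libraries, against 66.0, 27.2, 22.4 and 18.1 CPM in the Het libraries. KO replicates 9, 17 and 24 lay below every Het library, and the log2 fold change without KO replicate 8 was −1.31 (SE 0.42, adjusted p = 0.150). Cdca8, the gene of borealin, had −1.08 (SE 0.26, adjusted p = 0.0578), the Aurora B gene Aurkb −1.30 and the scaffold gene Incenp −0.60.

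Genes of anaphase and mitotic exit had the smallest median difference of the roles without KO replicate 8, −0.60 on the log2 scale. Ube2c, the ubiquitin-conjugating enzyme that works with the anaphase-promoting complex, had all 4 KO libraries below the 4 Het libraries. Among the 46 genes only Cdk1 did so too, where 4.48% of all genes did. Such separation was therefore no more common among the 46 than among all genes. Ube2c stood at 28.7, 23.2, 21.9 and 13.3 CPM in the KO libraries, against 47.7, 34.9, 33.1 and 35.8 CPM in the Het libraries. The log2 difference was −0.80 (SE 0.25, adjusted p = 0.208) with all libraries and −0.97 (SE 0.24, adjusted p = 0.0703) without KO replicate 8. Of Ube2c's exonic bases 22.8% are shared with Tnnc2 on the other strand. Cdc20, an activator of the anaphase-promoting complex, had 0.12 (SE 0.50) with all libraries and −0.40 (95% interval −1.36 to 0.56) without KO replicate 8. Cdca5, the gene of sororin, which protects sister cohesion, had 0.06 and −0.12 (95% interval −1.20 to 0.96), and its Het libraries ranged from 3.78 to 15.1 CPM. Espl1, the gene of separase, had −0.60 and Cdca3, which helps degrade the kinase Wee1, −0.62 without KO replicate 8, with wide overlap in both.

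**Figure D4:**
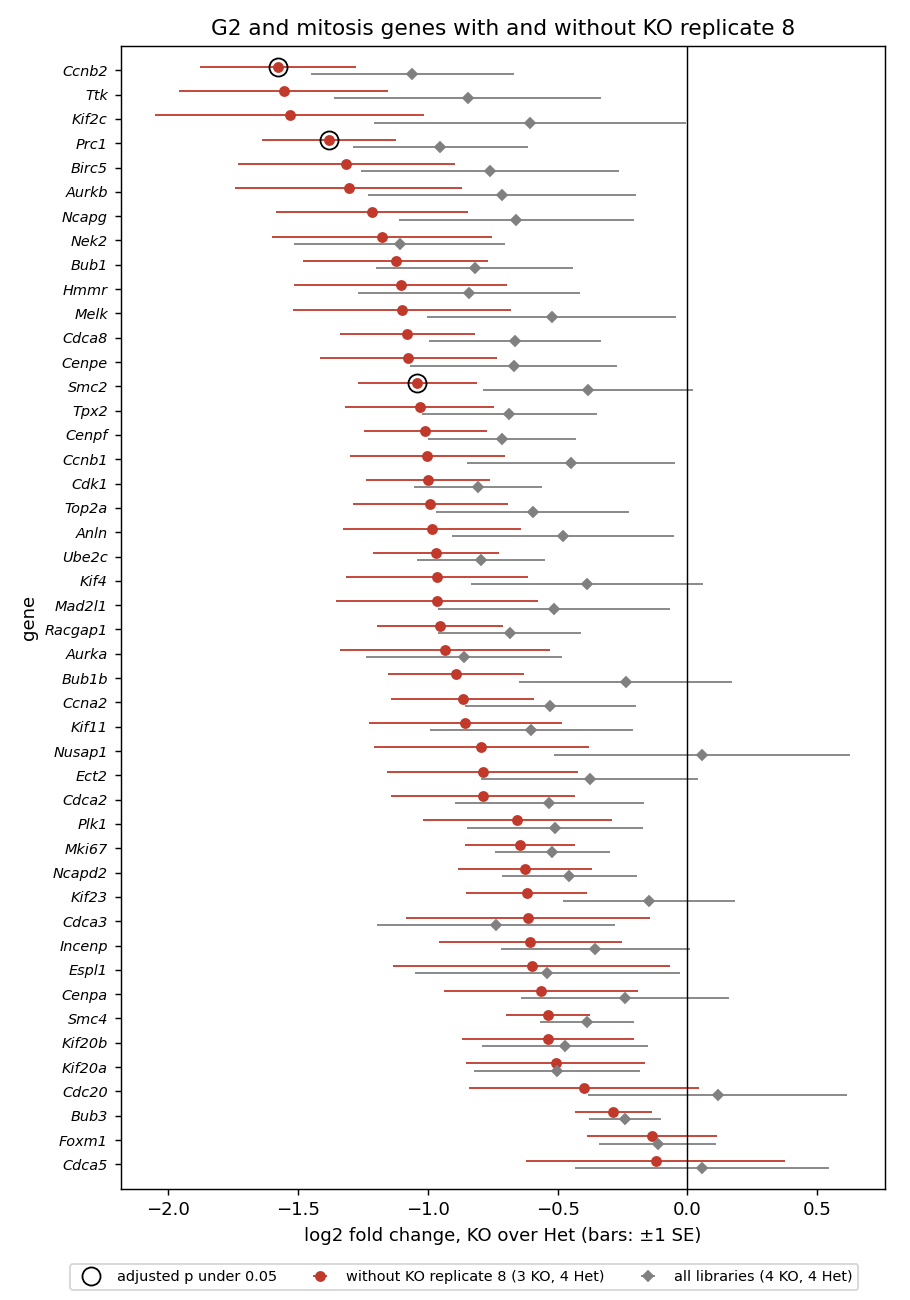
Log2 fold change of each of the 46 genes, KO over Het (bars are ±1 SE), without KO replicate 8 (red circles) and with all libraries (grey diamonds), sorted by the red values. All red circles lie left of 0, and the 3 ringed genes, Ccnb2, Prc1 and Smc2, have an adjusted p under 0.05.

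Other genes of the cell cycle, from lists that share no gene with the 46, also had negative medians. Of 60 other mitosis genes 58 had a row, with a median log2 fold change of −0.80 without KO replicate 8. EdgeR then called 6 lower, beside 1.31% of all genes, and 0 higher, beside 0.678%. At an unadjusted p under 0.05, 22 were lower, beside 8.21%, and 1 higher, beside 6.03%. The 4 with the smallest p were Pbk, a mitotic kinase gene (−2.03, SE 0.35, adjusted p = 0.0120), the DNA glycosylase gene Neil3 (−2.02), the condensin II gene Ncapg2 (−1.09) and the spindle gene Dlgap5 (−1.28). Pbk stood at 32.1, 12.9, 9.05 and 7.82 CPM in the KO libraries, against 48.4, 61.0, 29.6 and 22.0 CPM in the Het libraries. The 1 higher at an unadjusted p under 0.05 was Cit in both fits, and all its KO libraries lay above all its Het libraries. Its log2 fold change was 1.05 (SE 0.26, edgeR adjusted p = 0.0592) without KO replicate 8 and 0.93 (SE 0.27, adjusted p = 0.168) with it. With all 8 libraries edgeR called none of the 58, beside 0.680% of all genes lower and 0.340% higher, and the median was −0.45. At an unadjusted p under 0.05, 7 were lower, beside 5.80%, and 1 higher, beside 6.35%. Of 35 S-phase genes, edgeR called 2 lower and 0 higher without KO replicate 8, beside 1.31% and 0.678% of all genes. The 2 were Rrm2, a subunit of ribonucleotide reductase (−1.63, SE 0.36), and Mcm3 of the replicative helicase (−1.05, SE 0.24). The median of the 35 was −0.76, and 22 were lower at an unadjusted p under 0.05, beside 8.21%. With all libraries edgeR called none of the 35, beside 0.680% of all genes lower and 0.340% higher. At an unadjusted p under 0.05, 8 were then lower, beside 5.80%, and the median was −0.48. The difference between the S-phase and mitosis genes was not tested.

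The regulators that switch these genes on and off had smaller median differences, though the gap to the 46 genes was not tested. Among 20 genes of the E2F, pocket protein, B-Myb and MuvB families edgeR called none in either fit, and the median was −0.29 without KO replicate 8. At an unadjusted p under 0.05, 5 were then lower and 0 higher, beside 8.21% and 6.03% of all genes. With all libraries 2 were lower and 0 higher at that level, beside 5.80% and 6.35%. The smallest p was that of the repressor gene E2f8, which stood at 11.8, 6.94, 9.12 and 4.67 CPM in the KO libraries, against 30.9, 14.2, 19.9 and 14.4 CPM in the Het libraries. All KO libraries lay below all Het libraries, and without KO replicate 8 the difference on the log2 scale was −1.53 (SE 0.36, adjusted p = 0.0558). Of 10 endocrine progenitor markers, 1 had a negative log2 fold change without KO replicate 8, beside 50.6% of all genes, and 4 did with all libraries, beside 46.6%. EdgeR called only Sox4, higher in KO without KO replicate 8 (log2 difference 0.99, adjusted p = 0.0183), beside 0.678% of all genes called higher. Sox4 was not called with all 8 libraries (0.80, edgeR adjusted p = 0.199), where 0.340% of all genes were called higher. Neurog3 itself had 0.59 (SE 0.20, adjusted p = 0.174) without KO replicate 8 and 0.29 (SE 0.41, adjusted p = 0.824) with it.

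**Figure D5:**
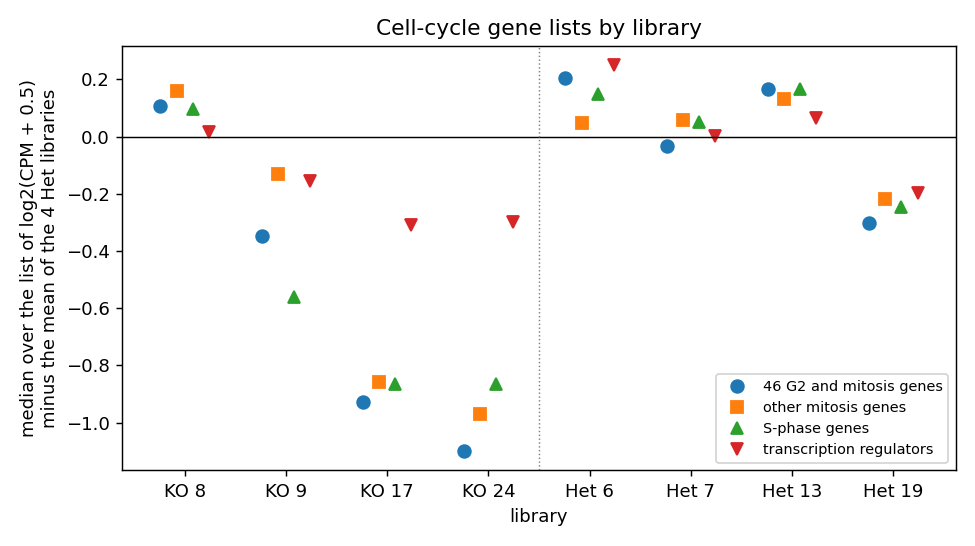
Median, over each of 4 gene lists, of log2(CPM + 0.5) minus the mean of the 4 Het libraries, by library. In KO 17 and KO 24 the median of the 46 genes is at −0.93 and −1.10, with the S-phase and other mitosis genes near it and the transcription regulators closer to 0, while KO 8 is at 0.11.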

How the data were processed

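Per the labels' protocols, Tomato-positive cells were sorted, and RNA was amplified as cDNA with a NuGen Ovation V2 kit and sequenced as single-end reads. That kit does not keep strand. Each library has a deposited table of raw counts by gene symbol. The submitters' processing notes list build mm9 and the tools TopHat2 2.1.0, bcl2fastq 1.8.4, DESeq and Cufflinks 2.0.2, without their order. Which of them counted reads, and over which annotation, is not stated. The authors' deposited comparison holds their mean normalized signal per group, a fold ratio of KO to Het, its log2, and p-values, per the file headers.

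KO was compared with Het by edgeR 4.0.16's quasi-likelihood F test (two-sided, TMM scaling, filterByExpr with minimum count 10 and minimum total count 15), with Benjamini-Hochberg adjustment over all tested genes, first with all 8 libraries and then refitted without KO replicate 8. All 46 genes passed the filter in both fits. Calls are genes with an adjusted p under 0.05. SE is the log2 fold change divided by the root of F, and 95% intervals use the fit's degrees of freedom. CPM values use the scaled sizes of the 8-library fit, in which 1 CPM stands for 9.86 to 16.2 counts. Alternatives were DESeq2 1.42.0, limma-voom (limma 3.58.1) with and without sample quality weights, median-ratio and total-count scaling, other low-count filters, mesenchyme and Y-linked covariates, and each library left out. Neighbouring genes were read from GENCODE M21 and promoters from RefSeq GRCm38.p6. The fits were tested on simulated data. Of 50 genes set to 0.5 fold in KO, 9 were called with all libraries and 13 without KO replicate 8. At 0.25 fold, 36 and 44 of 50 were called. A gene that was not called can therefore still differ.

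The members and lists were chosen with earlier results of these data known. Lists covered other mitosis genes, cell-cycle transcription regulators, S-phase genes, islet endocrine and endocrine progenitor markers, Y-linked genes, and mesenchyme, endothelial, leukocyte, erythroid, acinar, duct and Schwann-cell markers. Ska3, Bora and Adgre1 had no row. Values in every library are given for called members, for the member of each role with the highest mean CPM, and for Mki67, Top2a, Cdk1, Ccnb1 and Foxm1. From the other cell-cycle lists the called genes with the lowest p (at most 4) are named, or where none was called the 1 with the lowest p, and from each list of another cell type the highest member in KO replicate 8. Hmmr, Pbk, Cit, Sox4, Cftr, Cldn5, the hormone genes and other values beyond this rule were chosen after they were seen. RefSeq names pseudogenes of Ccnb1, Ccnb2, Aurkb and Kif4, and 11 members share exonic bases with a neighbour (2.96% to 31.8%), so their counts are less certain. No 2 libraries held the same values.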

Additional observations from a re-analysis of the deposited data

Results flagged for a closer look

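Within a genotype, 5 of 92 sets of 4 libraries (46 genes in KO and in Het) held a library far from the other 3 on the log2(CPM + 0.5) scale, judged by the gap to its neighbour as a share of the range of the 4, and chance gives about 5% of sets. In KO, Bub1b was high in replicate 8, reaching 35.9 CPM where the remaining KO libraries had 10.7 to 11.4 CPM (share 0.949). Cdca3 was high in KO replicate 9, at 9.65 CPM against 3.47 to 3.59 CPM (share 0.967). In Het, Cdca8 was high in replicate 7 (27.4 CPM, share 0.864), Tpx2 was high in replicate 6 (48.5 CPM, share 0.893) and Anln was low in replicate 19 (22.5 CPM, share 0.900).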

How the results depend on the processing

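No paired analysis was possible because the KO and Het libraries share no replicate number. The count of the 46 genes called lower rests on which libraries enter. With all 8 libraries it was 0, beside 0.680% of all genes. It was 12 by limma-voom with quality weights (beside 2.15%) and 6 with a covariate for mesenchyme markers (beside 2.53%). With any 1 library left out it was 0 to 3, the 3 without KO replicate 8 (beside 1.31%) and 0 without any other (beside 0.180% to 0.352%). Without KO replicate 8 it was 3, beside 1.31% of all genes, and it became 18 under DESeq2 (beside 3.13%), 23 with quality weights in limma-voom (beside 2.94%), 5 when low counts were not filtered (beside 1.22%) and 0 with a covariate for Y-linked genes (beside 0.671%, adjusted p 0.0547 or more). Leaving out 1 further library gave 0 to 8 calls. There were 0 without KO replicate 17 (beside 0.408% of all genes), KO replicate 24 (beside 0.392%) or Het replicate 13 (beside 0.687%). There was 1 without Het replicate 7 (beside 0.804%), and 3 without Het replicate 6 (Cenpf in place of Smc2, beside 1.21%). There were 6 without Het replicate 19 (beside 2%) and 8 without KO replicate 9 (beside 0.738%). Those fits all held fewer libraries, and the cause of the changes was not tested. Without KO replicate 8, adjusted p ran up to 0.127 for Ccnb2, 0.106 for Prc1 and 0.222 for Smc2 when 1 further library was left out, and Smc2 had 0.0544 by total counts. No gene of the 46 was called higher under any alternative. The median log2 fold change of the 46 ran from −0.96 to −0.38 with any 1 library left out of the 8, and was −0.93 with quality weights and −0.82 with the mesenchyme covariate, where all 46 were negative. It ran from −1.23 to −0.76 with any 1 left out of the 7 libraries other than KO replicate 8.

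Of the 46, 4 changed sign under some alternative, and the cause was not tested. With all libraries Nusap1 had −0.43 by limma-voom, −1.17 with quality weights, −0.59 with the mesenchyme and −0.78 with the Y-linked covariate, and −0.79 to 0.35 with 1 library left out. Cdc20 had −0.16 with quality weights, −0.23 with the mesenchyme covariate, and −0.40 to 0.51 with 1 left out. Cdca5 had −0.31, −0.0599 and −0.28 by those 3 (quality weights, mesenchyme, Y-linked) and −0.21 to 0.38 with 1 left out, and Espl1 −0.77 to 0.15. Without KO replicate 8, Cdca5 had 0.0185 by limma-voom and −0.48 to 0.20 with 1 further library left out, and Espl1 −0.90 to 0.0841. Genes under about 5 CPM, such as Kif2c, rest on few counts, and intervals of the fold changes cover the spread between these libraries only.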
